A study of Mus musculus with 8 samples.

Results

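The genes described are the AP-1 transcription factor genes Fos, Fosb, Fosl1, Fosl2, Jun, Junb and Jund, with the stress factor gene Atf3, the zinc finger gene Egr1 and Myc. They were taken by gene symbol from a table of 21705 gene names, and all 10 were found. RNA of mouse kidney cortex had been sequenced from 4 libraries labelled Sav1+/+ and treated with vehicle (wild-type) and 4 labelled Sav1-/- and treated with tamoxifen (Sav1-null), all on a mixed strain background. Sav1 encodes salvador, the scaffold of the Hippo kinases. The labels used here give no age, and they name neither the Cre driver nor the exons removed. Nor do they state whether each library is a different animal. The p-values set the difference between the groups against the scatter of these 8 libraries within them. Part of that scatter may be technical, so the p-values need not carry over to other animals.

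AP-1 is a dimer of basic leucine zipper proteins. Jun proteins pair with each other or with Fos proteins, Fos proteins need a Jun partner, and the pair binds short palindromic sites near genes of growth, matrix remodelling and inflammation. Fos, Fosb, Junb, Egr1 and Atf3 are immediate early genes, transcribed within minutes of a growth factor, cytokine or injury signal without new protein synthesis, largely through MAP kinases acting on factors already bound at their promoters. Myc, a helix-loop-helix leucine zipper factor that pairs with MAX, is induced by the same signals and drives genes of ribosome assembly and nucleotide synthesis. In the kidney, AP-1 genes, Atf3 and Egr1 are known to rise in the tubule after ischaemic or toxic injury, and also while tissue is being handled.

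The deposited values are RSEM estimates scaled so that the upper quartile of the values above 0 lay at about 1000 in each library. The steps of the low values give each library's depth, from 2.05e+07 to 2.5e+07 reads in wild-type and from 1.57e+07 to 2.09e+07 reads in Sav1-null libraries. Sav1 stood at 1504, 1743, 959 and 1193 in wild-type replicates 1 to 4 and at 983, 914, 982 and 714 in Sav1-null replicates 1 to 4. The groups overlapped, with wild-type replicate 3 below Sav1-null replicates 1 and 3, and Sav1 was 1.48-fold lower (limma adjusted p = 0.022), a call lost with equal library totals and without wild-type replicate 1 or 2. Since the removed exons are not named, a value over the whole gene is a weak check of the label, and Sav1-null is used here as the name of the labelled group. Xist was at 9280 to 16095 in the Sav1-null libraries and at most 0.989 in a wild-type library, while the Y-linked gene Eif2s3y was at 1089 to 1284 in wild-type and at 0 in every Sav1-null library. Genotype, treatment and sex-chromosome transcripts thus separated the same libraries and cannot be told apart as sources of any difference below. The library names of both groups end in the same S numbers. Whether the groups were prepared and sequenced together was not tested, and such a difference would separate the same libraries. Wild-type replicates 2 and 3 carried more of the tubule injury marker Havcr1 (1099 and 665) than replicates 1 and 4 (23.6 and 15.5). Sav1-null replicate 4 had the lowest summed value of the proximal tubule markers and the highest of the injured tubule markers. Its Havcr1 value (6275) was nonetheless the lowest of the Sav1-null libraries. Where leaving out these libraries changed a call of the 10 genes, both values are given.

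Most of these genes were higher in the Sav1-null cortex. Of the 10 genes, 8 averaged 10 or more across the 8 libraries and were tested. Of those 8, 7 were called higher (limma, Benjamini-Hochberg adjusted p under 0.05 over all tested genes) and 0 lower, also 0 lower at an unadjusted p under 0.05. Among all 13677 tested genes 69.1% were called, 43.9% higher and 25.2% lower. Myc, Egr1, Fos, Atf3, Fosl2 and Junb rose by 2.48 to 3.63 on the log2 scale, and their groups did not overlap, which held for 41.0% of all tested genes in this direction. A log2 fold change above 2 was found for 10.4% of all tested genes and for these 6. Jund rose 2.07-fold, and Jun did not pass the test. The lowest wild-type mean among the 8 tested genes was 27.2 (Fos), so none of them passed the filter through its Sav1-null values alone. The number called higher was 6 without Sav1-null replicate 4 (against 46.5% of all genes) and 6 without both wild-type replicates 2 and 3 (against 38.4%), in each case without Jund. It was 6 after median-of-ratios rescaling (against 33.8% of all genes), 8 on quantile-normalized values (31.5%) and 8 where library totals were made equal (63.4%). The 8 genes had a median log2 fold change of 2.77, against 0.23 for every gene tested.

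**Figure D1:**
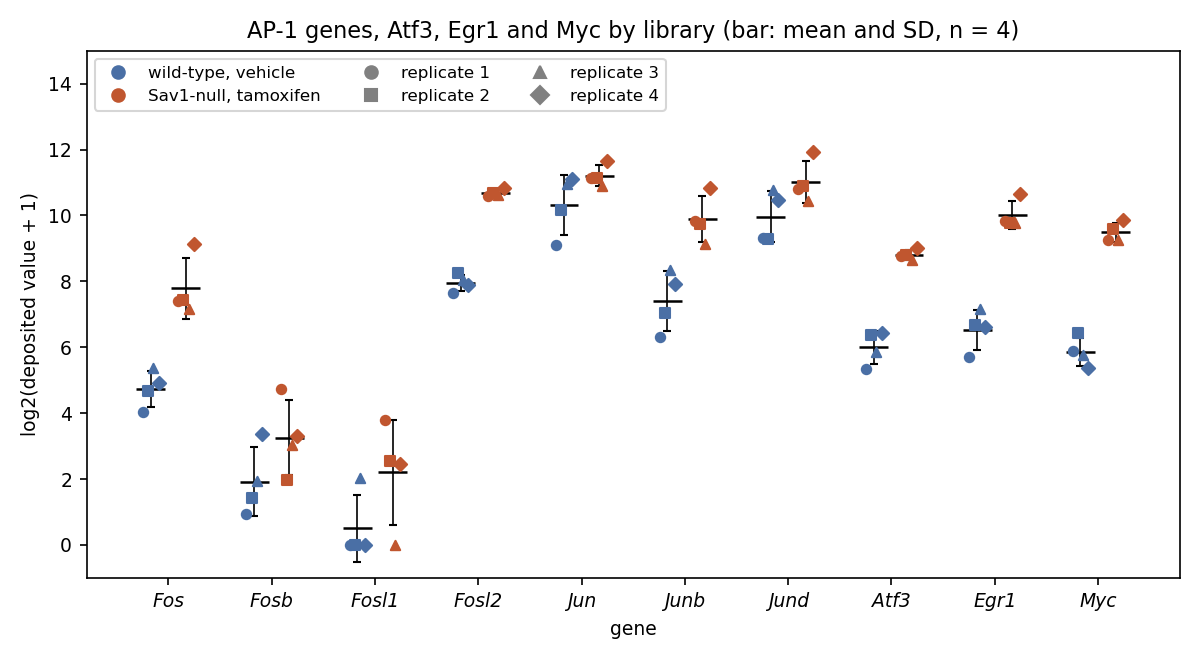
Values of the 10 genes in each library, as log2(deposited value + 1) on the vertical axis. Points are libraries (colour for the group, shape for the replicate), horizontal bars are group means and error bars SDs (n = 4). The groups of Fos, Fosl2, Junb, Atf3, Egr1 and Myc do not overlap, while those of Fosb, Fosl1, Jun and Jund do.

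The promoters of Fos, Junb, Atf3 and Jun are shown because they hold matches to sites of AP-1 and ATF proteins, which lets them be read side by side. The promoter of Fosb also holds such a match and is not printed. RefSeq's promoter table (build GRCm38.p6) held 7 of the 10 genes, Fos, Fosb, Fosl2, Jun, Junb, Jund and Atf3. Printed are the 250 bases before the annotated start, 5′ to 3′ on the gene's strand. Capitals mark TGACG, the core of the cAMP response element bound by CREB, ATF and AP-1 proteins (either strand), TATAAA, and the octamers TGACATCA and TTACCTCA, variant AP-1 sites known from the Jun promoter.
Fos, chr12:85473640-85473889, plus strand: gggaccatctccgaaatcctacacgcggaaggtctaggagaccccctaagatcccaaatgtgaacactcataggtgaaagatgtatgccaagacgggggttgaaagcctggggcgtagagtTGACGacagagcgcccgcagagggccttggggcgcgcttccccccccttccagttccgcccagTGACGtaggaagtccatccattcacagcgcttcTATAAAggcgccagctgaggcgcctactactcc
Junb, chr8:84978749-84978998, minus strand: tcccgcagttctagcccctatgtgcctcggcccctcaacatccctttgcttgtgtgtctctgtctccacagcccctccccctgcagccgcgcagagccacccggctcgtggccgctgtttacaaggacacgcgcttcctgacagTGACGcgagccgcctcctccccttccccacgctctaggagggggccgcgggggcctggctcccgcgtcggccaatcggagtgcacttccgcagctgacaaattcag
Atf3, chr1:191183334-191183583, minus strand: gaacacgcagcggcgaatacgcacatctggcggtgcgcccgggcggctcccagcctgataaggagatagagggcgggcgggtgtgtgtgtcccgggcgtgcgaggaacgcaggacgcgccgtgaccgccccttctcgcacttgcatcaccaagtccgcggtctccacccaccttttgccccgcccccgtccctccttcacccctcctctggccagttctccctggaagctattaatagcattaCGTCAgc
Jun, chr4:95052223-95052472, minus strand: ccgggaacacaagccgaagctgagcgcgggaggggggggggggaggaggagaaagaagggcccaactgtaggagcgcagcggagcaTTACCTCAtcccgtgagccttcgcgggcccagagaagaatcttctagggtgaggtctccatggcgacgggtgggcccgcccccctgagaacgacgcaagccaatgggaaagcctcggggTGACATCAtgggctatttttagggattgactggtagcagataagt

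TGACG occurred in the promoters of 4 of the 7 genes (Fos, Fosb, Junb and Atf3) and in 17.77% of the 32851 promoters of the same length in the table. In Fos it lay 129 to 125 and 66 to 62 bases before the start, in Fosb 60 to 56, in Junb 106 to 102, and in Atf3 7 to 3 bases before it on the other strand. Jun carried the variant octamers instead, TTACCTCA 164 to 157 and TGACATCA 45 to 38 bases before the start. Both were searched because they are known from the Jun promoter, so their match in Jun was fixed in advance. These octamers were found in 0.73% and 2.93% of all promoters, both strands searched. The window of Fosl2, which rose, held none of the searched motifs. Fosb held TGACG, but its mean was below 10 and it was left out of the main test. Whether the matches bear on the responses was not tested. TATAAA was found in Fos (33 to 28 bases before the start) and in 12.37% of promoters. None of the 7 windows held the full sites TGACGTCA (1.55% of promoters) or TGANTCA (6.75%), the CArG box bound by serum response factor (1.47%), the STAT site TTCNNNGAA (7.02%) or the TEAD site GGAATG (12.64%). TGACG is part of TGACGTCA, so their matches can overlap. These are matches of letters in a short window, and sites further away were not searched.

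Among the Fos family, Fos and Fosl2 rose and the other members were close to the detection limit. Fos, the short-lived founding partner of Jun, was at 15.4, 24.3, 40.2 and 28.9 in the wild-type libraries and at 168, 171, 143 and 566 in the Sav1-null libraries. Each Sav1-null value was above each wild-type value, and Sav1-null replicate 4 stood apart at the top. The rise was 8.26-fold (log2 fold change 3.05 ± 0.45, SE, limma adjusted p = 0.000242). It fell to 2.14 on the log2 scale after quantile normalization (limma adjusted p = 0.00365) and to 2.59 without Sav1-null replicate 4 (limma adjusted p = 4.23e-05). Fosl2, which encodes the longer-lived FRA2 protein, was at 200, 302, 260 and 234 in wild-type and at 1545, 1643, 1575 and 1825 in Sav1-null libraries. Both groups were tight and far apart. Its 6.65-fold rise (2.73 ± 0.13) had the smallest adjusted p of the 8 genes (limma, 5.76e-07).

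Fosb and Fosl1 had a mean below 10 and were left out of the test. Fosb, whose protein accumulates in a truncated form under chronic stimulation, was at 0.907, 1.68, 2.87 and 9.28 in wild-type and at 25.8, 2.93, 7.11 and 8.86 in Sav1-null libraries. The groups overlapped, and the highest value came from Sav1-null replicate 1, not from replicate 4. Added up over a group this was 15 wild-type reads and 54 Sav1-null reads, a ratio of 3.38 after depth (exact 95% interval 1.88 to 6.46, counting error only). Fosl1, which encodes FRA1, was at 0, 0, 3.11 and 0 in wild-type and at 12.9, 4.80, 0 and 4.52 in Sav1-null libraries. Both groups thus held libraries without a read. The sums were 3 and 26 reads, a ratio of 8.15 after depth, with an exact 95% interval from 2.50 to 42.1 for counting error only. With no filter on low values neither gene was called (Fosb log2 fold change 1.34, limma adjusted p = 0.104, and Fosl1 1.69, limma adjusted p = 0.0878).

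The Jun family did not move as one. Junb, which encodes a weaker activator that often opposes Jun, was at 78.9, 132, 326 and 239 in wild-type and at 912, 848, 566 and 1831 in Sav1-null libraries. The groups did not overlap, and both were wide, with a 4.13-fold span in wild-type and 3.24-fold in Sav1-null. The rise was 5.58-fold (2.48 ± 0.47, limma adjusted p = 0.00112). Jund, the member most evenly expressed in resting cells, was at 640, 624, 1732 and 1423 in wild-type and at 1802, 1889, 1387 and 3859 in Sav1-null libraries. Wild-type replicates 3 and 4 lay inside the Sav1-null range. Its log2 fold change of 1.05 ± 0.40 was called (limma adjusted p = 0.0414), while a two-sided exact permutation test over 70 assignments gave p = 0.0857. The call was lost after median-of-ratios rescaling (0.83, limma adjusted p = 0.103), without both wild-type replicates 2 and 3 (1.11, 0.0706) and without any one of wild-type replicate 1 (0.84, 0.111), wild-type replicate 2 (0.83, 0.112), Sav1-null replicate 1 (1.12, 0.0575), replicate 2 (1.09, 0.0679) or replicate 4 (0.75, 0.0818).

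Jun itself, the strongest activator of the family, was at 546, 1142, 1972 and 2194 in wild-type and at 2269, 2253, 1903 and 3238 in Sav1-null libraries. Its wild-type values spanned 4.02-fold and the upper values reached into the Sav1-null range, which spanned 1.70-fold. The log2 fold change of 0.89 ± 0.40 was not called (limma adjusted p = 0.0714, two-sided exact permutation p = 0.143). It was called after quantile normalization (limma adjusted p = 0.0443), with equal library totals (1.27, 0.0149), and with either wild-type replicate 3 (1.09, 0.0456) or wild-type replicate 4 (1.14, 0.0301) left out. For the 6 genes whose groups did not overlap the exact permutation p was 0.0286, the smallest that 4 libraries against 4 allow.

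Atf3, Egr1 and Myc all rose, with no overlap between the groups. Atf3, a factor of the ATF family that is a hallmark of cell stress and can pair with Jun, was at 39.9, 81.3, 56.5 and 85.6 in wild-type and at 439, 443, 400 and 513 in Sav1-null libraries. The Sav1-null values were within 1.28-fold of each other. The rise was 2.81 ± 0.23 on the log2 scale (limma adjusted p = 7.9e-06), and 2.21 after quantile normalization (limma adjusted p = 2.58e-05). Egr1, the zinc finger factor that answers ERK signalling through serum response factor, was at 50.8, 101, 142 and 96.9 in wild-type and at 908, 872, 879 and 1614 in Sav1-null libraries. As for Fos, 3 Sav1-null libraries lay together and replicate 4 above them. Egr1 rose 11.1-fold (3.48 ± 0.31, limma adjusted p = 1.23e-05). Myc was at 58.0, 84.6, 53.6 and 40.2 in wild-type and at 613, 764, 610 and 927 in Sav1-null libraries. Its 12.4-fold rise was the largest of the 8 as reported (3.63 ± 0.23, limma adjusted p = 2.13e-06). Egr1 was above Myc without wild-type replicate 3 (3.68 against 3.60) and without wild-type replicate 4 (3.504 against 3.464). In all, 2.06% of all tested genes had a log2 fold change at or above that of Myc.

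The size of these differences depended on how the libraries were scaled. Relative to the deposited scaling, the median over all tested genes moved by -0.22 after median-of-ratios rescaling, by -0.25 on quantile-normalized values and by 0.38 where library totals were made equal. Of all calls, 63.5% were higher as deposited, 49.9%, 48.8% and 81.7% under these scalings. Taken relative to the median of all genes, the log2 fold changes of Myc, Egr1, Fos, Atf3, Fosl2 and Junb lay between 2.16 and 3.40 under every one of these scalings. Those of Jun and Jund lay between 0.65 and 1.15.

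**Figure D2:**
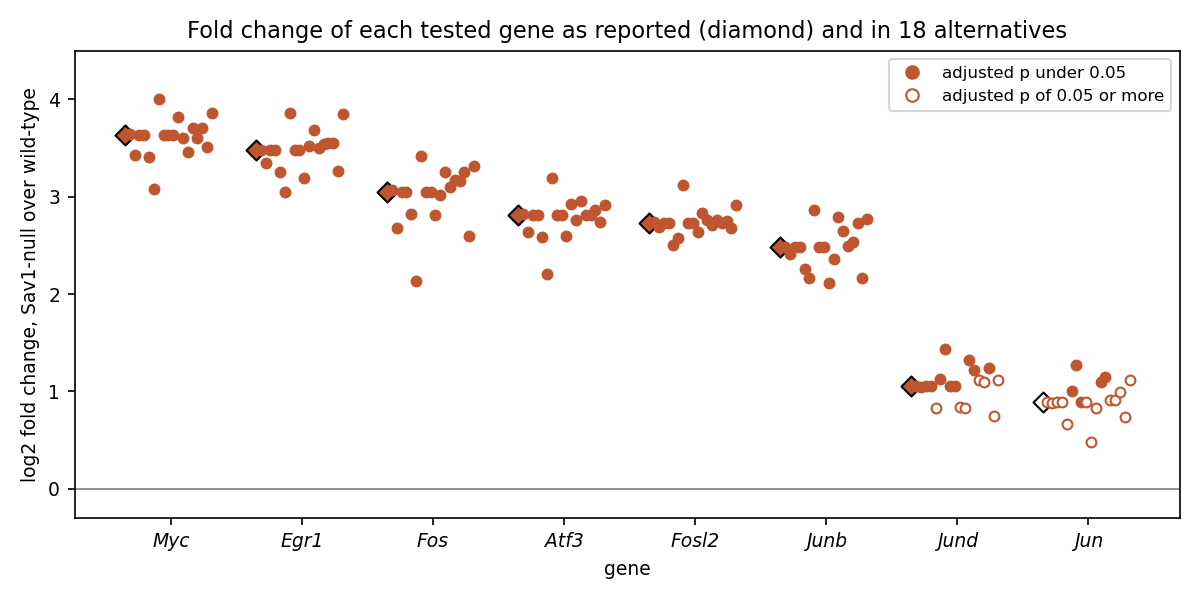
Log2 fold change of the 8 tested genes as reported (diamond) and in 18 alternative analyses (circles: pseudocounts, filters, scalings, single libraries left out and others), filled where the limma adjusted p was under 0.05. Myc, Egr1, Fos, Atf3, Fosl2 and Junb are filled throughout, whereas Jund is open in 7 of the 18 alternatives and Jun in 13.

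Within the groups, the same libraries tended to be high or low for many of these genes. Sav1-null replicate 4 had the highest Sav1-null value for 8 of the 8 tested genes, and for 38.4% of all tested genes. Sav1-null replicate 3 was the lowest of its group for 6 of 8, against 24.4% of all tested genes. Wild-type replicate 1 was the lowest of the wild-type libraries for 6 of 8, against 21.5% of all tested genes. In the wild-type group the top library differed between genes, replicate 3 for 4 of them and replicates 2 and 4 for 2 each. The 8 genes share libraries, so these counts describe libraries rather than independent observations.

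The libraries also differed in markers of other cells. In Sav1-null replicate 4 the 12 injured tubule markers summed to 310000, against 143191 to 181928 in the other Sav1-null libraries, and the 12 proximal tubule markers to 59034 against 105355 to 153625. Clu (196780) made up most of that injured tubule sum. Of these markers, Havcr1 (6275) and Vcam1 (5548) were at their lowest Sav1-null value in replicate 4. Krt20 lay between, and the rest were at their highest. The 7 neutrophil markers in the table summed to 521 in Sav1-null replicate 4 against 40.6 to 100.3 in the others, and the 8 fibroblast markers to 2710 against 6496 to 8310. S100a9 (199) and Csf3r (147) were the largest parts of that neutrophil sum. Retnlg was at 3.94 in Sav1-null replicate 4, and Mpo and Ngp were at 0 in every Sav1-null library. Between the groups, the 9 macrophage and dendritic markers in the table had wild-type sums of 3233 to 6070 and Sav1-null sums of 32120 to 44038, with all 9 called higher. T and NK cell markers summed to 52.8 to 63.2 and 187 to 271 (6 of 7 tested called higher, where 6 of the 7 had a wild-type mean below 10, passed the filter through their Sav1-null values and had to differ), and injured tubule markers to 11394 to 15530 and 143191 to 310000 (12 of 12 called higher). Proximal tubule markers went the other way, from 637783 to 695369 in wild-type down to 59034 to 153625, with 10 of 12 called lower. None of these markers was at 0 in all wild-type libraries. Their part in the differences of the AP-1 genes, Atf3, Egr1 and Myc was not tested. In a piece of cortex, a change in the number of cells of a type and a change in RNA per cell cannot be told apart.

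To compare levels between genes, deposited values were divided by the length of the longest coding transcript in kb. Jund and Jun had the highest levels per kb in both groups, at 662 ± 336 and 459 ± 239 (SD, n = 4) in wild-type and at 1340 ± 663 and 758 ± 180 in Sav1-null libraries. In wild-type they were followed by Junb (107 ± 61.1), Fosl2 (38.1 ± 6.54), Atf3 (33.2 ± 10.8), Myc (25.3 ± 7.96), Egr1 (21.7 ± 8.28) and Fos (12.9 ± 4.89), and then by Fosb (0.974 ± 1.01) and Fosl1 (0.417 ± 0.834). In Sav1-null libraries the order was Junb (574 ± 303), Myc (312 ± 64.5), Fosl2 (252 ± 19.2), Egr1 (238 ± 81.3), Atf3 (226 ± 23.7), Fos (124 ± 96.3), Fosl1 (2.98 ± 2.89) and Fosb (2.95 ± 2.66). Neighbours in either order overlapped in their range over the libraries, except Fos and the member after it. Within single libraries the order was steadier than these ranges. Jund, Jun and Junb were highest, in this order, in 8 of 8 libraries, and Fosb and Fosl1 were the lowest in 8 of 8. Myc came directly after Junb in 4 of 4 Sav1-null libraries and in 0 of 4 wild-type libraries.

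The make-up of the AP-1 transcripts shifted. Of the summed level per kb of all Fos and Jun genes, the Fos family made up 4.74% ± 1.90 (SD, n = 4) in the wild-type libraries and 12.9% ± 1.61 in the Sav1-null ones, with ranges of 3.01% to 6.73% and 11.3% to 15.1%. Fosl2 went from 3.58% ± 1.74 to 8.99% ± 2.49, and Fos from 1.07% ± 0.229 to 3.72% ± 1.18. Junb went from 8.11% ± 1.13 to 18.2% ± 2.32. The shares of Jund (51.9% ± 7.24 and 42.9% ± 3.05) and Jun (35.2% ± 6.77 and 25.9% ± 3.60) overlapped between the groups. Fosl2 was lowest and Fos highest as a share in Sav1-null replicate 4, at 5.70% and 5.49%. The shares sum to a whole, so a larger share of one gene lowers the others. With the union of all exons as length, the Fos family made up 3.55% and 10.3%.

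**Figure D3:**
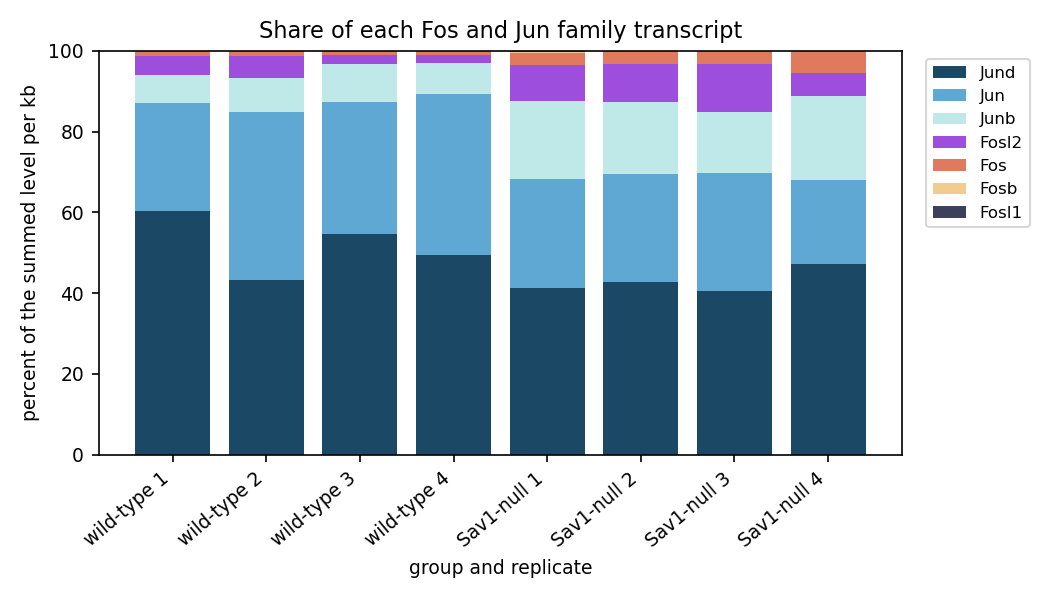
Share of each Fos and Jun family transcript in the summed level per kb, in percent (bars, 1 per library). Junb and Fosl2 take a larger part in each of the 4 Sav1-null libraries than in any wild-type library, and Fosb and Fosl1 are too small to see in most.

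Other bZIP factors that pair with Jun or Fos moved in part. Of 11 tested, 6 were called higher and 0 lower (1 lower at an unadjusted p under 0.05), with a median log2 fold change of 0.58 that turned to -0.19 after quantile normalization. Under median-of-ratios rescaling 4 were higher and 3 lower, where 33.8% of all tested genes were called higher. As deposited, 43.9% of all tested genes were called higher and 25.2% lower, the shares to set beside this and every later list count. Maff, a small MAF protein without an activation domain, rose 9.07-fold (66.4 ± 36.6 to 527 ± 56.6, limma adjusted p = 0.000116), and Jdp2, a repressor partner of Jun, 3.06-fold (34.1 ± 4.81 to 106 ± 9.81, limma adjusted p = 2.72e-05). The AP-1 partner genes Batf and Batf2 rose 4.08-fold and 2.76-fold, calls that were lost after quantile normalization (limma adjusted p = 0.0582 and 0.338). These 2 genes had wild-type means below 10, so they passed the filter through their Sav1-null values, and they are among the 6.

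Other immediate early genes rose more often than not. Of 39 listed genes, 34 were tested, of which 27 were called higher and 2 lower, with a median of 1.18. Among the 27 is 1 gene with a wild-type mean below 10, which passed the filter through its Sav1-null values. Nfkbiz, which encodes a nuclear IκB protein, rose 12.8-fold (70.6 ± 13.5 to 916 ± 202), and Klf6, a zinc finger factor of injured epithelium, 7.47-fold (835 ± 186 to 6136 ± 270). Zfp36l1, an mRNA decay factor, and Btg2, an antiproliferative gene, rose 4.42-fold and 4.52-fold (limma adjusted p of these 4 genes from 7.57e-07 to 3.45e-06). Against the list, Errfi1, a feedback inhibitor of the EGF receptor, fell 2.89-fold and Tiparp, an ADP-ribosyltransferase, 1.85-fold (limma adjusted p = 0.00159 and 0.000748). Dusp1, the MAP kinase phosphatase induced together with Fos in many cells, was at 1317 ± 430 and 1162 ± 356 and did not pass the test (limma adjusted p = 0.668; chosen after its values were seen). Egr4 had no read in any library. Wild-type replicate 1 was the lowest of its group for 18 of the 34 genes, against 21.5% of all tested genes. Sav1-null replicate 4 was the highest of its group for 15, against 38.4% of all tested genes, and the lowest for 10, against 42.8%.

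**Figure D4:**
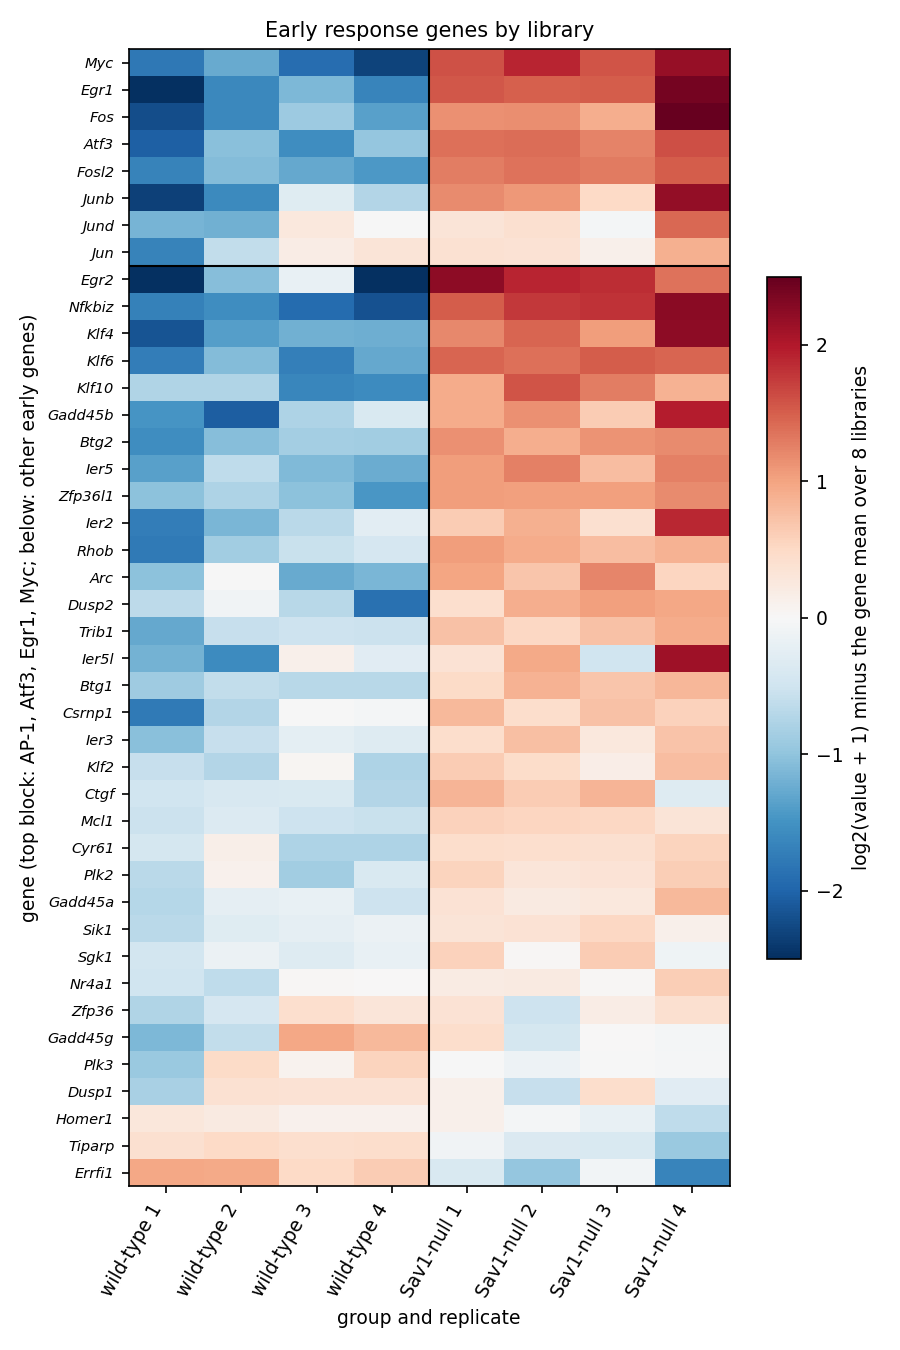
Heat map of log2(value + 1) minus each gene's mean over the 8 libraries (colour scale), for the 8 tested genes (top block) and 34 other early genes (rows) by library (columns). Most rows are red in the Sav1-null libraries, the column of replicate 4 is darkest for Fos and Egr1, and Dusp1, near the bottom, shows no such split.

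Upstream of these genes, most genes of the serum response factor complex rose, and the kinases went both ways. Of 6 genes of serum response factor, the ternary complex factors and their co-activators, 5 were called higher and 0 lower (0 lower also at an unadjusted p under 0.05), median 0.84. Mkl1, a co-activator that answers actin, rose 2.62-fold and Elk3 2.55-fold (limma adjusted p = 3.26e-05 and 2.7e-05), while Srf was at 456 ± 45.6 and 466 ± 66.1 (limma adjusted p = 0.867; chosen after its values were seen). Of 25 MAP kinase cascade genes 10 were called higher and 10 lower, with a median of 0.08 that turned to -0.15 after median-of-ratios rescaling. The counts were 13 and 1 with equal library totals, and 10 and 5 without both wild-type replicates 2 and 3. Mapk11, the p38 beta gene, rose 12.3-fold (29.4 ± 4.59 to 407 ± 221), Map3k8, which encodes the kinase TPL2 upstream of ERK, 6.75-fold and Map3k1, upstream of JNK, 5.45-fold. Map2k6, which activates p38, fell 3.08-fold, and Mapk14, the main p38 gene, was at 3306 ± 61.5 and 2249 ± 367, a fall that was not called with equal library totals (limma adjusted p = 0.116).

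Feedback inhibitors and partners of EGR factors rose in the majority. Of 14 dual specificity phosphatase, Sprouty and Spred genes 10 were called higher and 2 lower (median 0.58), and 6 and 2 after quantile normalization. Among the 10 is 1 gene with a wild-type mean below 10, which passed the filter through its Sav1-null values. The ERK antagonist gene Spry1 rose 4.44-fold (85.2 ± 3.81 to 387 ± 78.7) and the JNK phosphatase gene Dusp8 3.92-fold, while Dusp4 fell 1.82-fold. Spry4 was called lower as deposited and lost the call in 7 of the 18 alternatives. Of 6 genes tied to EGR1, 5 were called higher and 0 lower (0 lower also at an unadjusted p under 0.05), median 0.84. Pdgfb, a growth factor for stromal cells, rose 3.29-fold (331 ± 67.0 to 1095 ± 232) and F3, the tissue factor gene that starts coagulation, 2.17-fold.

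Textbook AP-1 targets had the highest median of the 12 pathway lists. Of 30 listed genes, 23 were tested, of which 20 were called higher and 2 lower, with a median of 3.39. For 5 of the 23 the wild-type mean was below 10, so they passed the filter through their Sav1-null values and had to have the higher mean there. Il1rl1, with a wild-type mean of 4.42, is among these 5. Lif, a cytokine of the interleukin 6 family, rose from 14.2 ± 3.31 to 480 ± 158 (31.1-fold), Il1rl1, the interleukin 33 receptor gene, 14.6-fold and Mmp14, a membrane-bound collagenase, 14.3-fold (limma adjusted p of these 3 genes from 8.89e-07 to 2.56e-06). Hmox1, the haem oxygenase gene, fell 1.98-fold (921 ± 156 to 474 ± 142), and Ccnd1, the cyclin D1 gene, 1.75-fold, a call lost after quantile normalization (limma adjusted p = 0.135). One gene of the list, Krt18, also stands among the injured tubule markers.

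Genes around MYC did not follow it as a block. Of 18 tested partners and regulators 12 were called higher and 3 lower (median 0.49), and 8 and 5 after quantile normalization. Mycl1, a Myc paralog, rose 4.37-fold (21.5 ± 5.62 to 95.3 ± 3.91), Usp28, a deubiquitinase that stabilizes MYC, 2.05-fold and Max, the partner of MYC, 1.41-fold (chosen after its values were seen), while Mlx, a partner of the related Mondo factors, fell 2.26-fold. Of 40 textbook MYC targets 19 were called higher and 9 lower, near the 43.9% and 25.2% of all tested genes. Their median of 0.15 turned to -0.07 after median-of-ratios rescaling, when 13 were higher and 14 lower, and to -0.07 after quantile normalization, when 12 were higher and 11 lower. Among the 19 is 1 gene with a wild-type mean below 10, which passed the filter through its Sav1-null values. Cad, the enzyme that begins pyrimidine synthesis, rose 2.83-fold (164 ± 13.6 to 468 ± 72.9), and the nucleolar genes Npm1 and Nop56 2.06-fold and 1.87-fold. In the other direction Odc1, the rate-limiting enzyme of polyamine synthesis, which in mouse kidney is also induced by androgens, fell 9.55-fold (22606 ± 5170 to 2376 ± 599), Shmt2, of mitochondrial one-carbon metabolism, 5.06-fold and Tfrc, the transferrin receptor gene, 3.02-fold (limma adjusted p of these 3 from 2.74e-06 to 2.82e-05).

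**Figure D5:**
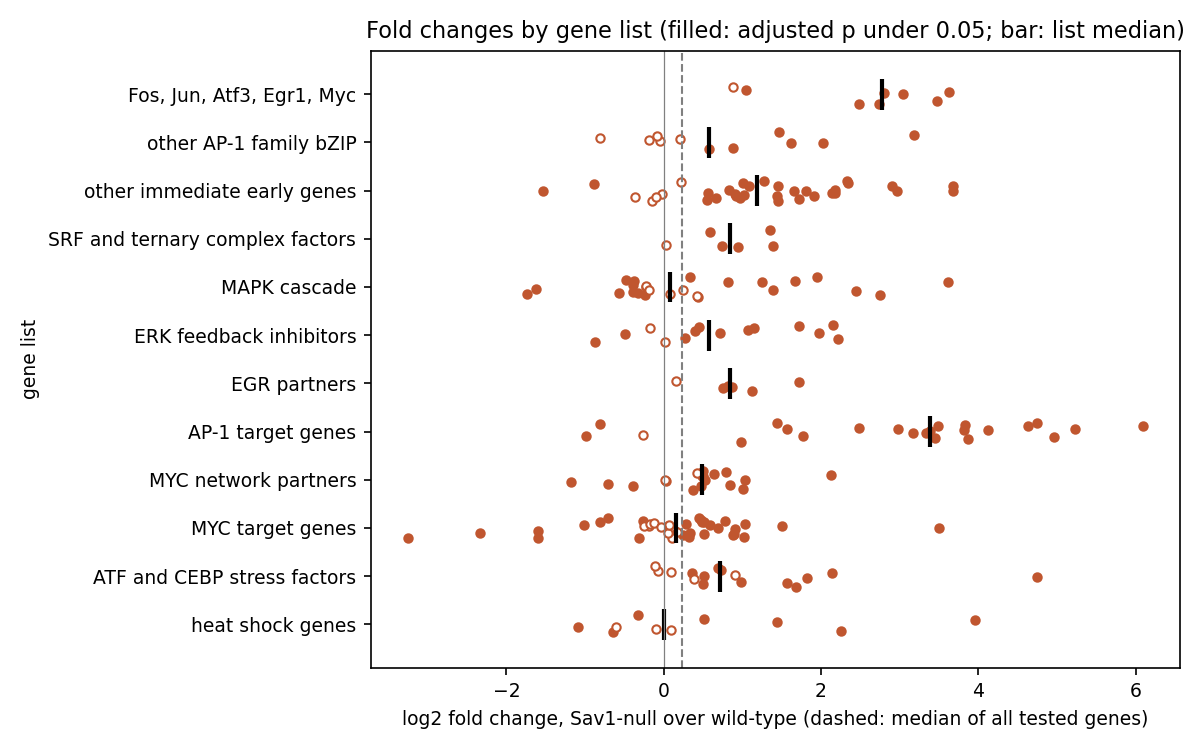
Log2 fold change, Sav1-null over wild-type, of each tested gene (points, filled where the limma adjusted p was under 0.05) by gene list, with the list median (bar) and the median of all tested genes (dashed line, 0.23). The lists of AP-1 genes with Atf3, Egr1 and Myc and of AP-1 targets have medians of 2.77 and 3.39, and that of MYC targets 0.15.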

How the data were processed

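The deposited table holds 1 normalized signal per gene and library, made by the authors with RSEM, Picard 1.64 and SAMtools on mouse build mm9, per the submitters' processing notes. Aligner, annotation and strand setting: not given in the sources used here. The upper quartile scaling and the value of 1 read were read from the values. From 92.7% to 93.3% of the values below 400 lay within 0.02 read of a whole number, too few to use a count model. RSEM divides shared reads by estimate, and genes with an antisense or overlapping partner are uncertain.

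The 13677 genes averaging 10 or more across the 8 libraries were compared as log2(value + 1) with limma 3.58.1 in R 4.3.3 (variance moderation followed the mean level, and 6 residual degrees of freedom remained), adjusted by Benjamini-Hochberg over all tested genes. Fold changes are antilogs of this scale, which understates changes of low genes. In simulated data 200 of 13677 genes were changed, by 1 or 2 log2 units. Of these, 61% of the genes changed by 1 and 88% of those changed by 2 were recovered, with 8 false calls. In the data 69.1% of the tested genes were called, so these shares need not hold there. Gene lengths came from GENCODE M21 and promoters from RefSeq, both GRCm38, so no position is taken from the mm9 values. Motifs were searched on both strands.

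The genes described and the 26 lists (12 of pathways, 14 of cell type markers) were chosen with earlier results of these data known. The genes described are always named. Of each pathway list, the genes eligible for naming are up to 4 called genes with the smallest p in each direction, and a choice of these is printed. The 2 nearest profiles of each tested gene are also named, except 1 that is not reported here. Lists are described by counts and medians. Alternatives were pseudocounts of 0.5 and 10, no filter, a filter at 100, the scalings named in the text, robust moderation, a replicate block and leaving out each library. Leaving out both wild-type replicates 2 and 3, and the exon union as length, were added after seeing the data.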

Additional observations from a re-analysis of the deposited data

Results flagged for a closer look

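Among the 4 libraries of a group, 1 library lay far from the others for some genes: its gap to the nearest library, as a share of the range of the group, was above Dixon's 95% critical value. Of 148 groups examined (2 for each of 74 genes) 10 were of this kind, and chance gives about 1 in 20. Sav1-null replicate 4 was the high one for Fos (566) and Egr1 (1614), and also for Zfp36l1 (5251) and Atf5 (806), and the low one for Jdp2 (91.5) and Il1rl1 (55.1). Wild-type replicate 2 was high for Map3k1 (716) and Mlxip (576). Wild-type replicate 3 was high for Id3 (741), and wild-type replicate 4 was low for Lif (9.28). Without Sav1-null replicate 4 the log2 fold changes of Fos and Egr1 were 2.59 and 3.26.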

How the results depend on the processing

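Myc, Egr1, Fos, Atf3, Fosl2 and Junb were called higher in each of the 18 alternatives. With equal library totals 1946 genes were called lower in place of 3452, and 1 MAP kinase cascade gene, 1 feedback inhibitor, 1 MYC partner and 1 heat shock gene. After median-of-ratios rescaling 3 other bZIP factors, 14 MYC targets, 2 stress factors and 5 heat shock genes were lower. After quantile normalization 2 other bZIP factors were higher and 1 lower, 6 feedback inhibitors and 12 MYC targets higher, and 5 MYC partners and 1 stress factor lower. With a filter at a mean of 100, 2 other bZIP factors were higher (fewer were tested). Without both wild-type replicates 2 and 3, 5 MAP kinase cascade genes and 1 feedback inhibitor were lower, and 1 feedback inhibitor with no filter. Leaving out 1 library at a time gave 0 to 1 bZIP factors and 1 to 2 feedback inhibitors lower. The log2 fold change of Hspa5, -0.33 as reported, was 0.44 on quantile-normalized values and 0.0532 on values with equal totals. The cause was not tested. Replicate numbers did not pair the libraries: same-numbered libraries correlated at 0.14, 0.08, -0.17 and 0.13 in their deviations from the group means over genes. With the replicate block, Jun was called (log2 fold change 0.89, limma adjusted p = 0.0387), 1 other bZIP factor was lower, and 5927 genes were higher. By exon union lengths the Sav1-null shares were 15.4% for Junb and 46.3% for Jund. Depth limits Fosb and Fosl1, where 3 reads correspond to a value of 2.34 to 3.09.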

Other observations

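Stress factors related to Atf3 moved in part. The list of 16 held genes of the ATF4 pathway and the C/EBP family, and also Atf6, Creb1, Crem and Creb5. Of the 16, 11 were called higher by limma and 0 lower (0 lower also at an unadjusted p under 0.05), with a median log2 fold change of 0.71. Creb1, Crem and Creb5 are among the 11. Creb5 rose from 2.24 ± 1.74 to 74.9 ± 15.8 (SD, n = 4). Of the 16 genes, 2 (Creb5 and Trib3, the latter named after its values were seen) had a wild-type mean below 10 and passed the filter through their Sav1-null values. Atf5 rose 3.21-fold and Asns, the asparagine synthetase gene, 2.96-fold. Atf4, the factor of the integrated stress response, was at 2343 ± 135 and 2541 ± 538 (limma adjusted p = 0.546; chosen after its values were seen). Of 10 heat shock genes 4 were called higher and 3 lower, near the 43.9% and 25.2% of all tested genes, with a median of -0.00 that was 0.40 on quantile-normalized values and 0.38 where library totals were made equal. The small heat shock protein gene Hspb1 rose 15.6-fold and Hspa1b, an inducible HSP70 gene whose near-identical copy Hspa1a shares reads, 4.75-fold, while the co-chaperone gene Dnaja1 fell 2.12-fold.

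For each tested gene, the nearest genes were those with the smallest root mean square difference over the 8 libraries between log2 values centred on each gene's own mean. Klf6 (0.205) and the sphingosine kinase gene Sphk1 (0.150) were nearest to Atf3. The NF-kB inhibitor gene Nfkbia (0.245) and the clock gene Per1 (0.266) were nearest to Jun, and Hspa1b (0.252) was nearest to Junb. The urokinase receptor gene Plaur (0.269) and H2-Q2 (0.269) were nearest to Egr1, Ebf4 (0.275) and Sfn (0.278) to Fos, Nfkbil1 (0.110) and Phldb3 (0.172) to Jund, Akr1b8 (0.104) and Tnfsf13b (0.128) to Fosl2, and Sytl2 (0.142) and Chrnb1 (0.152) to Myc. How much of this likeness lies between the groups and how much within them was not tested.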
